A study of Mus musculus with 10 samples.

Results

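The nuclear genes of mitochondrial ribosomal proteins were examined in the hippocampus of mice after a light-driven ablation of the meningeal lymphatic vessels or its vehicle control. Members were all protein-coding genes of the deposited table whose symbol is Mrpl or Mrps followed by a number and at most 1 letter. The rule uses no measured value. It found 77 genes among the 28871 in the table, all of which passed the filter on low counts. A further gene that fits the rule in the annotation, Mrpl33, carries an identifier that the table does not list, so it was not analysed here. The samples were 5 hippocampi of mice given Visudyne (3, 6, 9, 12 and 15) and 5 of mice given vehicle (1, 4, 7, 10 and 13). All were wild-type C57BL/6J males aged 2 months. Visudyne, an injectable form of the photosensitizer verteporfin, or its vehicle was delivered into the cisterna magna, and both groups then received red light of 689 nm through the intact skull. The procedure was given again after 2 weeks, and whole hippocampi were dissected 2 weeks after the last one. The comparison is meant to address what loss of meningeal lymphatic function does to RNA levels in the hippocampus. No group here had Visudyne without light, so other effects of Visudyne, with or without light, cannot be told apart from it. The labels do not say that each sample is 1 animal, so p-values measure the spread between these samples, which may be technical.

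Mitochondria keep their own ribosome, which translates the few proteins that the mitochondrial genome encodes, all of them core subunits of the respiratory chain and of ATP synthase. Its 2 ribosomal RNAs come from mitochondrial DNA, whereas its proteins are encoded in the nucleus, made in the cytosol and imported. Some of these proteins have counterparts in the bacterial ribosome, and others were added in the mitochondrial lineage. Neurons of the hippocampus depend on respiration for synaptic transmission. By place in the human and porcine structures, 50 members belong to the large subunit and 26 to the small one. Mrps30 and Mrps18a count as large-subunit proteins despite their symbols. Mrps36 was counted in neither, because its product was later assigned to the 2-oxoglutarate dehydrogenase complex.

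Libraries held 51165271 to 68895223 estimated counts, of which the 77 genes together took 0.139 to 0.146% in Visudyne and 0.133 to 0.145% in vehicle libraries. All but Mrpl23 and Mrpl42 had at least 100 counts in every library. Values are given as CPM, counts scaled to a common library size with TMM factors. Summed CPM of markers of neurons ranged from 2267 to 2782 in Visudyne and from 2400 to 2780 in vehicle libraries, and those of dentate granule cells from 286 to 357 and from 294 to 359. The 5 meningeal fibroblast markers summed to 99.4 to 129.6 CPM in Visudyne and 38.0 to 93.2 CPM in vehicle libraries, and these groups did not overlap. Of the 5, Col1a1, a collagen gene, passed edgeR's test over all genes (log2 fold change 1.18, adjusted p = 0.0485). The collagen genes Col3a1 (1.36) and Col1a2 (0.78) did not pass it, though their groups did not overlap. Dcn (0.18) and Lum (0.04) did not pass it either, and their groups overlapped, so the higher sum was not shared by all 5 markers. The 4 choroid plexus markers summed to 24.0 to 49.2 CPM in Visudyne libraries and to 26.5 to 41.4 CPM in 4 vehicle libraries, and vehicle 7 stood apart at 213 CPM. No marker of the 12 lists was at 0 in all libraries. The part of these other cells in the values below was not tested. In tissue RNA, fewer cells of a type and less RNA per cell cannot be told apart.

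No mitochondrial ribosomal protein gene was called higher or lower with Visudyne. Of the 77 genes, 0 passed edgeR's quasi-likelihood test at an adjusted p under 0.05, against 0.021% of all 19093 genes tested, and every member had an adjusted p of 0.9999. At an unadjusted p under 0.05 there were also 0 members, against 1.7% of all genes (1.14% higher and 0.56% lower). In 0 members did the 2 groups of 5 libraries fail to overlap, against 0.435% of all genes (0.319% higher and 0.115% lower). DESeq2 called 0 members, against 0.0943% of all genes, and limma voom 0, against 0.021%. At an unadjusted p under 0.05 there were 0 members by DESeq2, against 1.66% of all genes, and 0 by limma voom, against 1.97%. Log2 fold changes, Visudyne minus vehicle, lay between -0.21 for Mrpl23 and 0.10 for Mrpl34, with a median of -0.03, beside 0.0022 over all genes tested. In 61 members the log2 fold change was smaller than its own SE. The groups were measured closely enough to bound the differences. In 75 of 77 members the 95% interval of the fold change lay within 1.25-fold in both directions, as it did in 10679 of all 19093 genes. In 76 it lay within 1.5-fold. The exceptions were Mrpl23, which missed the narrower bound, and Mrpl42, which missed both. These intervals hold for 1 gene at a time.

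**Figure D1:**
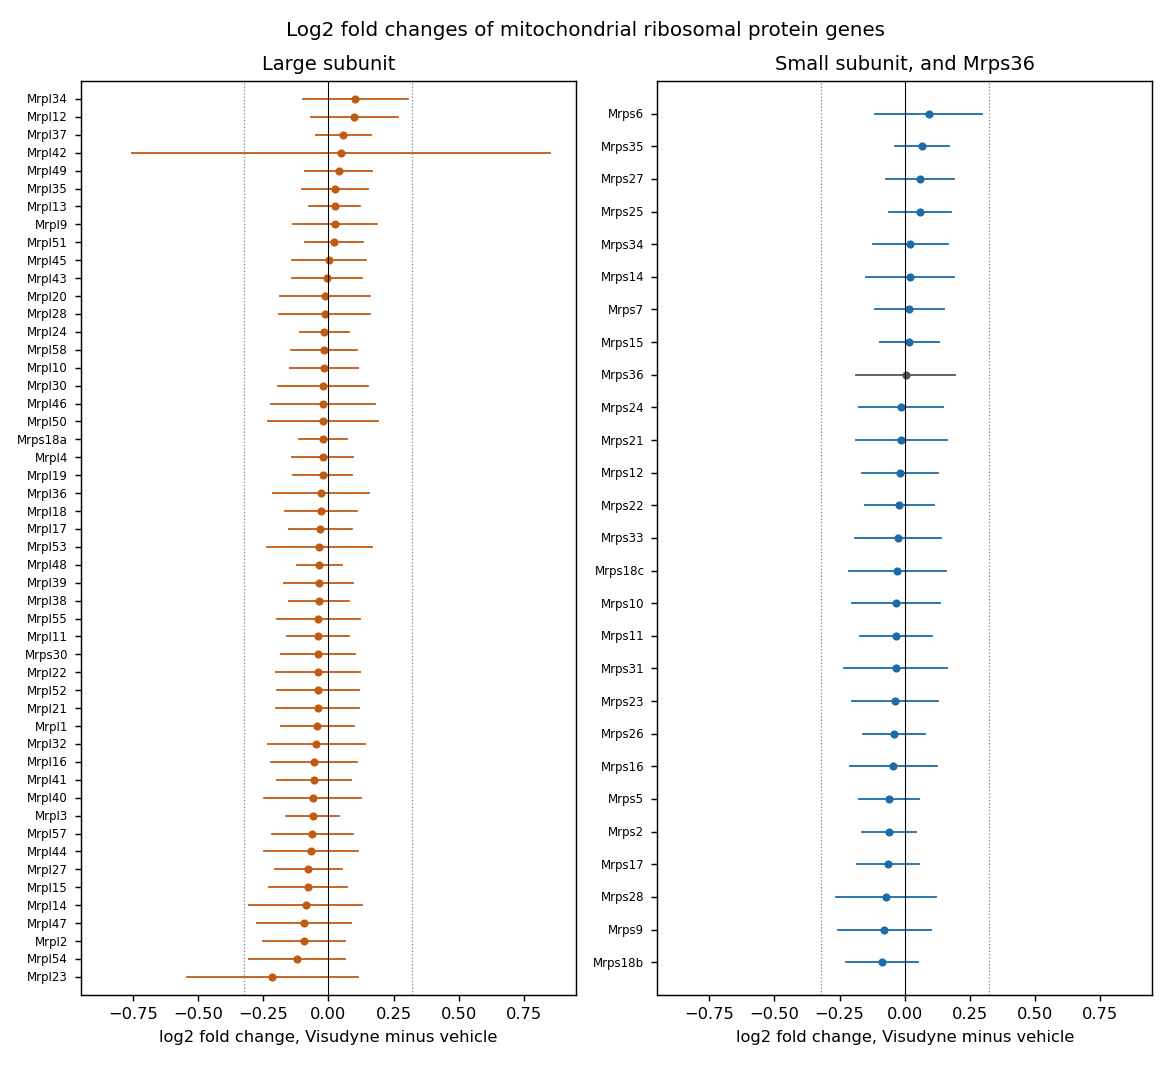
Log2 fold change (Visudyne minus vehicle, horizontal axis) of each member with its 95% interval from edgeR, for 50 large-subunit genes (left) and for 26 small-subunit genes and Mrps36 (right, Mrps36 in grey). Dotted lines mark a 1.25-fold difference in each direction. All points lie between -0.21 and 0.10, and the intervals of Mrpl23 and Mrpl42 alone reach past a dotted line.

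Negative values were more frequent than positive ones, 58 against 19, but this split changed with the scaling and with single libraries. It was 21 negative, with a median of 0.01, when libraries were scaled by total counts alone. That scaling also moved the median over all genes, to 0.05, so the members' median stayed below it. The split was 38 negative, with a median of 0.0013, when vehicle 1 was left out, and 43, with a median of -0.01, without Visudyne 15. Over all genes the medians were then 0.0041 and -0.0052. With TMM factors and all libraries, 48.9% of log2 fold changes over all genes tested were negative. This share was 75.3% for the members, 78.9% for cytosolic ribosomal protein genes and 79.0% for nuclear OXPHOS genes. All 13 mitochondrially encoded protein genes were negative, so the split was not particular to the members. Both subunits and both kinds of origin had medians near 0. The median was -0.03 for the small subunit, with 18 of 26 negative, and -0.03 for the large subunit, with 40 of 50 negative. It was -0.03 for the 45 members with a bacterial counterpart and -0.03 for the 31 that are specific to mitochondria.

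Among proteins of the small subunit, which binds the mRNA and decodes it, the smallest p-values fell on Mrps18b and Mrps35. Per library, in the order of samples given above, Mrps18b measured 12.01, 11.8, 10.7, 10.7 and 9.99 CPM in Visudyne hippocampi, against 12.5, 11.03, 11.5, 11.7 and 11.8 CPM in vehicle hippocampi. Visudyne 15 was the lowest of the 10 libraries and vehicle 1 the highest, and the groups overlapped. The log2 fold change was -0.09 (SE 0.06, unadjusted p = 0.193 by edgeR). Mrps35, a mitochondria-specific protein, measured 13.4, 13.3, 13.6, 13.8 and 14.4 CPM in Visudyne hippocampi, against 13.3, 12.9, 12.3, 13.5 and 13.4 CPM in vehicle hippocampi. Here Visudyne 15 was the highest library and vehicle 7 the lowest, and the groups again overlapped (0.07, SE 0.05, unadjusted p = 0.198 by edgeR). Mrps25 measured 20.9, 20.2, 21.3, 20.9 and 21.1 CPM with Visudyne, against 22.8, 19.2, 19.5, 19.7 and 19.2 CPM with vehicle. All Visudyne libraries lay above 4 of the 5 vehicle libraries, and vehicle 1 lay above all of them. Its log2 fold change was 0.06 (SE 0.05), and 0.11 without vehicle 1, with an unadjusted p of 0.0261 and an adjusted p of 0.9998 by edgeR.

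Mrps12, the protein of the decoding centre, measured 19.5, 18.3, 17.9, 19.9 and 17.0 CPM in Visudyne hippocampi, against 21.1, 18.5, 17.1, 19.4 and 17.6 CPM in vehicle hippocampi. The groups overlapped, with vehicle 1 the highest library and Visudyne 15 the lowest (log2 fold change -0.02, SE 0.07). Mrps17 averaged 41.9 ± 2.57 CPM with Visudyne and 43.8 ± 2.29 CPM with vehicle (SD, n = 5 each). Mrps21 averaged 19.0 ± 1.79 and 19.2 ± 1.87 CPM in the Visudyne and vehicle groups, and Mrps33 34.3 ± 2.84 and 34.9 ± 3.43 CPM. Mrps36, the member outside the ribosome, averaged 11.2 ± 1.14 CPM with Visudyne and 11.2 ± 1.12 CPM with vehicle (0.0039, SE 0.09).

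The 3 members derived from 1 bacterial protein, S18, occupy different places: Mrps18c and Mrps18b in the small subunit and Mrps18a in the large one. By their structural names Mrps18a and Mrps18b are counted here among the mitochondria-specific proteins. Mrps18a measured 23.9, 22.8, 23.5, 22.7 and 22.3 CPM in Visudyne hippocampi, against 24.3, 23.4, 23.6, 23.2 and 22.4 CPM in vehicle hippocampi. It was among the steadiest members, with an SD within groups of 0.04 on the log2 scale. Mrps18c measured 10.3, 9.37, 10.01, 11.6 and 8.59 CPM with Visudyne, against 11.01, 9.08, 10.4, 10.8 and 9.53 CPM with vehicle. The log2 fold changes of Mrps18a and Mrps18c were -0.02 (SE 0.04) and -0.03 (SE 0.09). Per kilobase of transcript Mrps18a stood highest of the 3 at 26.3 ± 0.755 CPM, then Mrps18c at 15.8 ± 1.47 and Mrps18b at 10.6 ± 0.699 CPM (SD over 10 libraries). Each lay apart from the next by more than these SDs, which measure the spread between libraries only. Errors from transcript length or from sequence shared with other genes are not in them.

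Among large-subunit proteins, which form the peptide bond and guide the nascent chain, the extremes were Mrpl23 and Mrpl34. Mrpl23, a protein at the exit of the peptide tunnel, measured 1.16, 1.14, 1.32, 1.33 and 0.906 CPM in Visudyne hippocampi, against 1.44, 1.14, 1.39, 1.48 and 1.35 CPM in vehicle hippocampi. Of the vehicle libraries only vehicle 4 overlapped those of Visudyne, and the rest were higher (-0.21, SE 0.15, unadjusted p = 0.181 by edgeR). Mrpl54, a mitochondria-specific protein, measured 9.57, 9.68, 9.60, 10.3 and 7.67 CPM with Visudyne, against 11.2, 10.2, 9.44, 10.7 and 9.36 CPM with vehicle. Visudyne 15 was the lowest library, and without it the log2 fold change of -0.12 (SE 0.08) became -0.06. Mrpl27, which lies near the peptidyl transferase centre, averaged 18.0 ± 1.35 CPM with Visudyne and 19.0 ± 0.824 CPM with vehicle (-0.08, SE 0.06). Mrpl3, a core protein, averaged 40.7 ± 1.34 and 42.4 ± 2.26 CPM in the same order (-0.06, SE 0.05).

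Positive values were led by Mrpl12 and Mrpl34. Mrpl12, the stalk protein that recruits translation factors and has been reported in human cells to bind the mitochondrial RNA polymerase, measured 15.3, 16.2, 16.4, 17.4 and 15.8 CPM in Visudyne hippocampi. Vehicle hippocampi had 13.1, 13.5, 16.1, 16.5 and 16.5 CPM. Vehicle 1 and vehicle 4 were the lowest libraries, and the other vehicle libraries lay within the Visudyne range (0.10, SE 0.08, unadjusted p = 0.214 by edgeR). Mrpl34 measured 8.48, 7.28, 7.49, 8.74 and 6.59 CPM with Visudyne, against 8.19, 7.09, 7.29, 6.42 and 6.87 CPM with vehicle, and the groups overlapped (0.10, SE 0.09). Mrpl37 averaged 19.3 ± 0.868 and 18.5 ± 0.716 CPM in the Visudyne and vehicle groups (0.06, SE 0.05). Mrpl45, which in humans anchors the ribosome to the inner membrane, averaged 24.2 ± 1.79 CPM with Visudyne and 24.1 ± 1.77 CPM with vehicle (0.0036, SE 0.07). Mrpl58, a peptidyl-tRNA hydrolase that rescues stalled ribosomes, averaged 19.1 ± 1.28 and 19.3 ± 0.962 CPM (-0.02, SE 0.06).

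The members varied together between libraries. Above their own mean lay 60, 13, 30, 68 and 11 of 77 members in Visudyne 3, 6, 9, 12 and 15, and 70, 15, 39, 65 and 18 in vehicle 1, 4, 7, 10 and 13. Each group thus held libraries in which most members were high (Visudyne 3 and 12, vehicle 1 and 10) and libraries in which most were low. The median deviation of the 77 members from their own mean was 0.04, -0.06, -0.01, 0.09 and -0.14 on the log2 scale in the Visudyne libraries, and 0.14, -0.05, 0.0024, 0.05 and -0.05 in the vehicle libraries. Between the highest library, vehicle 1, and the lowest, Visudyne 15, this is a 1.21-fold difference, more than that between the groups. After each library's median was subtracted, the median SD within groups fell to 0.07, against 0.11 before, and 64 of 77 members had a smaller SD.

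**Figure D2:**
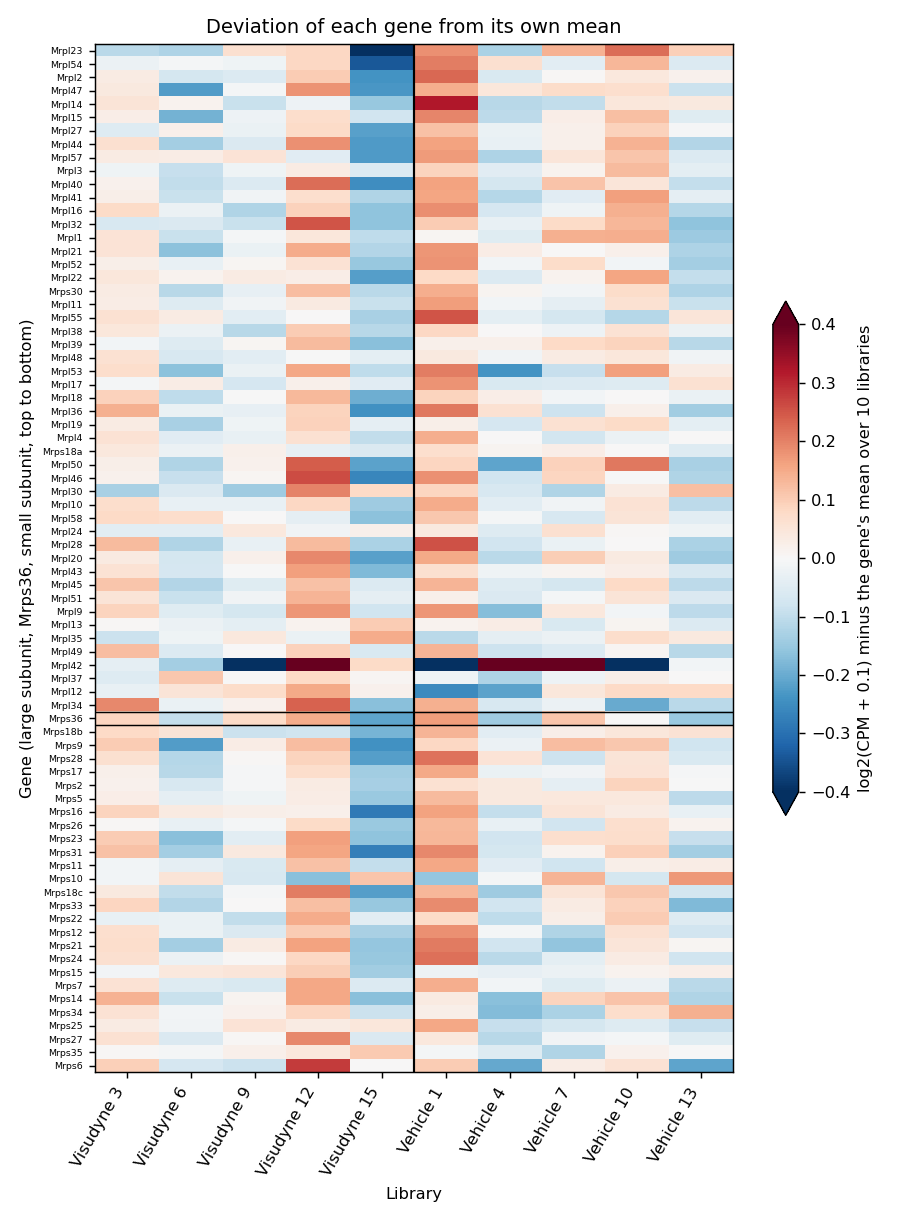
Deviation of each member (1 line each, large subunit above, Mrps36 between, small subunit below, each ordered by log2 fold change from low to high) from its own mean over 10 libraries, as log2(CPM + 0.1), with Visudyne libraries left of the black line and vehicle libraries right of it. Visudyne 12 and vehicle 1 are red and Visudyne 15 is blue for most genes.

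Other nuclear gene groups had their extremes in the same libraries. For 76 cytosolic ribosomal protein genes the median deviation was 0.17 in Visudyne 12, -0.20 in Visudyne 15 and 0.22 in vehicle 1, and for 81 nuclear OXPHOS genes 0.13, -0.18 and 0.19. Sums of some cell-type markers were also higher in Visudyne 12 and vehicle 1 than in Visudyne 15, although astrocyte markers were lowest in vehicle 13 and neuron markers highest in Visudyne 3: those of astrocytes were 1011 CPM in Visudyne 12, 790 in Visudyne 15 and 932 in vehicle 1, those of microglia 169 (Visudyne 12), 131 (Visudyne 15) and 164 (vehicle 1), and those of neurons 2666, 2267 and 2780 in the same libraries. Not all lists followed this order. Endothelium markers summed to 48.3, 55.6 and 71.1 CPM in the same libraries, and blood markers to 4.18, 9.25 and 10.1 CPM. Choroid plexus markers summed to 48.4, 49.2 and 35.9 CPM, and meningeal fibroblast markers to 117, 99.8 and 90.9 CPM. The remaining lists followed it. The part of cell composition in the shared pattern was not tested. The 13 protein-coding genes of the mitochondrial genome, which are what this ribosome translates, had another order: their highest medians were 0.31 in vehicle 7, the library with the high choroid plexus markers, and 0.19 in vehicle 4, and their lowest was -0.18 in Visudyne 12. The TMM scaling factors, which convert library totals to a common scale, had their extremes there too, with 1.07 in Visudyne 15 as the highest and 0.947 in vehicle 1 as the lowest. As a share of protein-coding counts, which no factor enters, the members took 0.204, 0.201, 0.201, 0.210 and 0.199% in Visudyne libraries, against 0.212, 0.197, 0.201, 0.206 and 0.202% in vehicle libraries. Vehicle 1 and Visudyne 12 were again the highest, while vehicle 4 was here the lowest. The part of the scaling in this pattern was not tested.

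**Figure D3:**
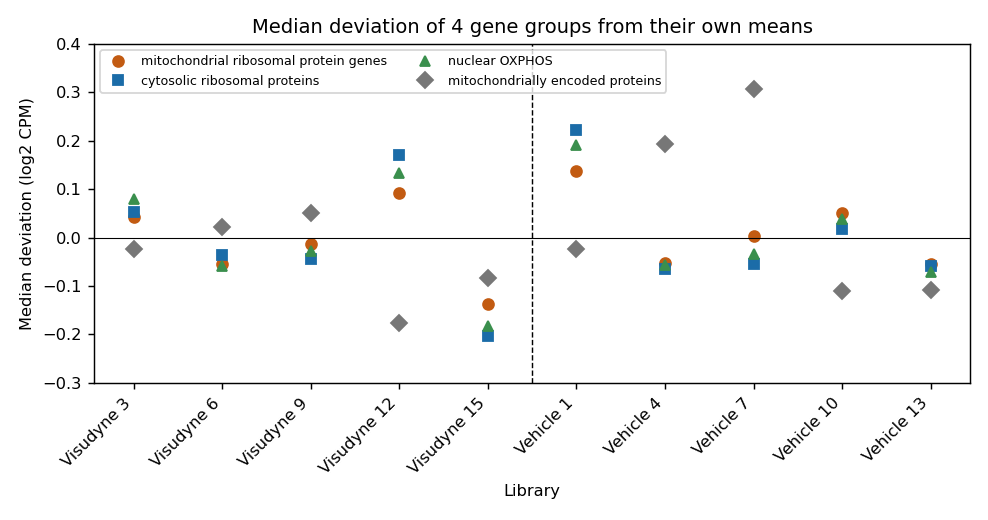
Median deviation (log2 CPM) of 4 gene groups from the genes' own means in each library, Visudyne left and vehicle right of the dashed line. Mitochondrial ribosomal protein genes run from -0.14 in Visudyne 15 to 0.14 in vehicle 1 beside the cytosolic ribosomal and nuclear OXPHOS genes, while mitochondrially encoded genes are highest in vehicle 7.

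The balance of the 2 subunits was nearly constant. Summed over genes, small-subunit members reached 466 ± 28.0 CPM with Visudyne and 473 ± 24.3 CPM with vehicle, and large-subunit members 922 ± 51.1 and 938 ± 47.2 CPM (SD, n = 5 each). The ratio of the small to the large sum was 0.510, 0.504, 0.509, 0.506 and 0.501 in Visudyne libraries, against 0.508, 0.504, 0.498, 0.503 and 0.509 in vehicle libraries. These ranges overlapped. The 16S ribosomal RNA mt-Rnr2 measured 161475 ± 15544 CPM with Visudyne and 181329 ± 16016 CPM with vehicle (-0.17, SE 0.09, adjusted p = 0.9999 by edgeR), and the 12S RNA mt-Rnr1 24224 ± 822 and 25453 ± 1876 CPM (-0.07, SE 0.06, adjusted p = 0.9999 by edgeR). Together they took 18.8 ± 0.956% of counts with Visudyne and 20.3 ± 1.21% with vehicle, which did not pass the exact two-sided permutation test (p = 0.0635, n = 5 each, smallest possible p 0.0079). For every 1000 mitochondrial rRNA counts there were 7.28, 7.51, 7.95, 7.29 and 7.73 counts of the members in Visudyne libraries, against 6.82, 6.18, 6.64, 7.46 and 7.44 in vehicle libraries. Of the vehicle libraries, 10 and 13 fell inside the span of the Visudyne libraries and the other 3 below it. These are counts in total RNA libraries, and the part of library preparation in the rRNA values was not tested.

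Levels differed far more between members than between groups, although the proteins meet in 1 particle in set numbers. Per kilobase of the principal transcript, the mean over 10 libraries had a median of 11.9 CPM over the members, and the middle part of the members, between the quartiles, spanned 7.39 to 16.2 CPM per kb. The highest were Mrps17 (49.4 ± 2.89 CPM per kb, SD over 10 libraries), Mrps21 (42.7 ± 3.88), Mrpl20 (34.7 ± 3.16) and Mrps33 (31.3 ± 2.70). The lowest were Mrpl42 (1.01 ± 0.438 CPM per kb), Mrpl23 (1.83 ± 0.254), Mrpl17 (2.97 ± 0.164) and Mrps35 (3.22 ± 0.130). In this order the ranges of mean ± SD overlapped between Mrps17 and Mrps21, between Mrpl20 and Mrps33, and between Mrpl17 and Mrps35, and did not between Mrps21 and Mrpl20, Mrpl42 and Mrpl23, or Mrpl23 and Mrpl17. These ranges hold the spread between libraries and not the error of comparing different genes. The low values of Mrpl17 and Mrps35 go with long annotated transcripts of 7300 and 4162 bases, whereas the median over members was 1280 bases. For Mrps17, the highest, the principal transcript has 868 bases, while all its annotated exons cover 6490. Counts are over all transcripts of a gene, and the part of the chosen length in these ranks was not tested. Mrpl23 shares 77.0% of its 31-base sequence words with the pseudogene Mrpl23-ps1. The pseudogene was listed at a mean of 13.5 CPM and Mrpl23 at 1.265 CPM. The part of the division of reads between them in the low rank of Mrpl23 was not tested. Medians were 12.1 CPM per kb for the large and 10.6 for the small subunit. For comparison, the median was 116 CPM per kb for cytosolic ribosomal proteins and 62.9 for nuclear OXPHOS genes.

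**Figure D4:**
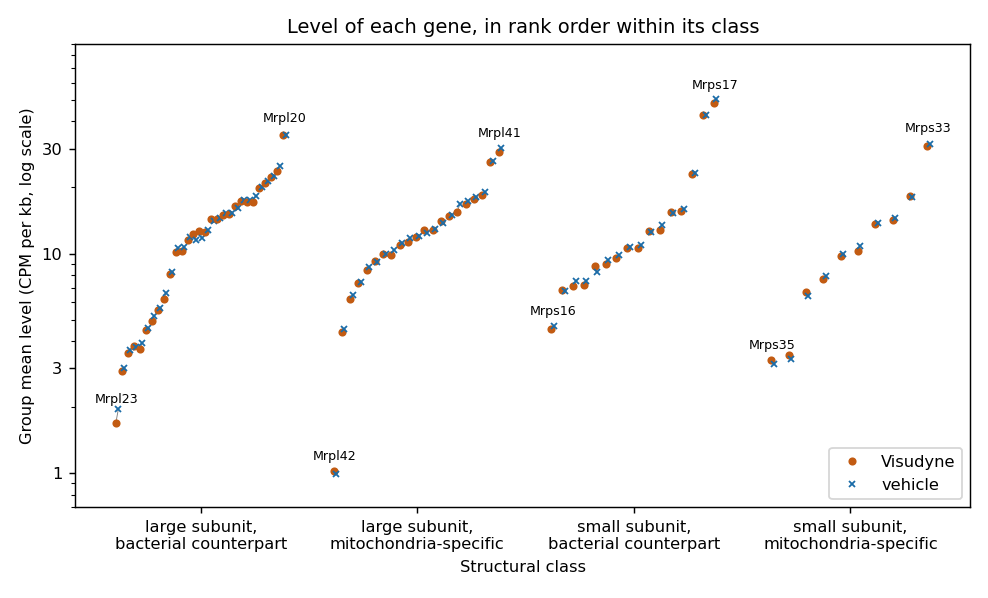
Mean level of each member except Mrps36 in CPM per kb of principal transcript (vertical axis, log scale) in Visudyne (circles) and vehicle (crosses) hippocampi, in rank order within 4 structural classes. Most members of each class lie between 3 and 30 CPM per kb, both group means of a gene nearly coincide, and Mrpl42 and Mrpl23 lie below the rest. Mrpl23 shares most of its sequence with a pseudogene, so its level is uncertain.

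Some levels are uncertain because the estimation of counts had to divide reads between like sequences. A share of at least 10% of the 31-base words of the principal transcript also occurred in another annotated gene for 17 members, and for 9 of them that gene is in the table. Only words in the same orientation were counted. Exons of 7 members overlap another annotated gene on the same strand, and those of 28 on the opposite strand. The part of these overlaps in the counts was not tested. For Mrpl23 the share was 77.0% with the processed pseudogene Mrpl23-ps1, which was itself listed at 13.4 CPM with Visudyne and 13.6 CPM with vehicle. The 2 together measured 14.6 ± 1.12 CPM in Visudyne and 14.98 ± 1.19 CPM in vehicle hippocampi. All 31-base words of Mrpl53 recur in the overlapping gene Gm42688, and the 2 together measured 19.5 ± 0.746 and 19.6 ± 1.58 CPM. Mrps34 and Mrps6 overlap their neighbours Nme3 and Slc5a3 on the same strand. Mrpl42, which had the largest spread, measured 0.605, 0.558, 0.405, 1.17 and 0.662 CPM in Visudyne hippocampi, against 0.304, 0.869, 1.09, 0.415 and 0.618 CPM in vehicle hippocampi. Its SD within groups was 0.63 on the log2 scale, against a median of 0.11 over members and of 0.15 over all genes tested, and its counts went down to 19 in a library. Next in spread came Mrpl23 (0.18) and Mrpl50 (0.17), a mitochondria-specific protein with 27.0 ± 3.32 CPM in the Visudyne and 27.4 ± 3.27 CPM in the vehicle group.

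The members are scattered over 17 chromosomes, with at most 11 on 1 of them, chromosome 11. A feature of their position was the company of a second gene read in the opposite direction. In 33 members (42.9%) another protein-coding gene on the other strand started within 1000 bases, head to head, against 12.6% of all 18417 protein-coding genes in the table. The latter include genes with too few counts to be tested, whereas all members were tested. Several partners also serve mitochondria: Sars2, the mitochondrial seryl-tRNA synthetase, lies beside Mrps12, the complex I subunit gene Ndufs6 beside Mrpl36, and the helicase gene Twnk beside Mrpl43. Mrpl46 and Mrps11 are each other's partner. Of the 30 partners that are no members and were tested, 0 passed edgeR's test over all genes and 1 had an unadjusted p under 0.05. That was Sars2, with 6.15, 5.98, 5.55, 5.46 and 5.47 CPM in Visudyne hippocampi, against 6.29, 6.51, 6.71, 6.503 and 6.07 CPM in vehicle hippocampi. Vehicle 13 lay within the Visudyne range and the rest above it (-0.16, SE 0.07, unadjusted p = 0.031, adjusted p = 0.9999 by edgeR). Mrps12, across the shared start region, differed by -0.02 as given above.

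Start regions were compared for motifs of factors known to act on nuclear genes of mitochondrial proteins. RefSeq start regions (GRCm38.p6, from 250 bases before to 50 bases after the start) were at hand for 68 members, with 74 starts in all. The ETS motif CCGGAAG, bound by GABPA among others, occurred on either strand in 25 of them (33.8%), against 14.8% of 15347 starts of tested protein-coding genes. The NRF1 motif, GCGCA and GCGC with any 1 base between them, occurred in 13 (17.6%, against 8.46%) and the YY1 motif AAGATGGCG in 8 (10.8%, against 2.45%). At least 1 of the 3 was present in 54.1% of member starts, against 23.2%. A match is a description and not a site. Of the next 3 regions, each 1 example of a motif, capitals mark the matches. The first spans the gap between the starts of Mrps12 and Sars2 (chr7:28741772-28742071, minus strand, ETS), the second at Mrpl45 (NRF1), and the third at the start of Mrps11, which overlaps that of Mrpl46 (chr7:78782881-78783180, plus strand, YY1).
Mrps12: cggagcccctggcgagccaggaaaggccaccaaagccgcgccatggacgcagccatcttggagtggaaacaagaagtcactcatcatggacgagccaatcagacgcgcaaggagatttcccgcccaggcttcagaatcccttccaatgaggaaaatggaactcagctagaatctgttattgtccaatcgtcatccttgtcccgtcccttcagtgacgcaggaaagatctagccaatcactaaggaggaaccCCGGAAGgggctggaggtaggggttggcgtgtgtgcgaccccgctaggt
Mrpl45: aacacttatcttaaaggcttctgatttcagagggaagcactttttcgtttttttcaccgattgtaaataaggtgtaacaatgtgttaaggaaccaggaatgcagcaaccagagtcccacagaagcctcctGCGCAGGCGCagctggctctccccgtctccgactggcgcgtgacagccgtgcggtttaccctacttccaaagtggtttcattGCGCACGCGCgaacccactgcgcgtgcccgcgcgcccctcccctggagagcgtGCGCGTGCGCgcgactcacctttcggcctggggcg
Mrps11: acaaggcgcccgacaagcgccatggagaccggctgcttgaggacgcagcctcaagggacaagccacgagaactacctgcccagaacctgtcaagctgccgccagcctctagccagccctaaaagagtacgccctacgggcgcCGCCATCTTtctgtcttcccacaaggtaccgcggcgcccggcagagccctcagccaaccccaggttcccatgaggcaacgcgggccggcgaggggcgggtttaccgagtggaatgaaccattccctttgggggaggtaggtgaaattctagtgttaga
In the Mrpl45 region (chr11:97315466-97315765, plus strand) the NRF1 motif matched at 3 positions, the most in any member. These 3 genes showed no difference beyond the spread between libraries, with log2 fold changes of -0.02 for Mrps12, 0.0036 for Mrpl45 and -0.03 for Mrps11.

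Of 76 other genes of mitochondrial translation and gene expression, in 5 lists, 0 passed edgeR's test over all genes, and 1, Sars2, had an unadjusted p under 0.05. The 5 ribosomal proteins with other names (Dap3, Ptcd3, Aurkaip1, Chchd1 and Gadd45gip1) had a median log2 fold change of -0.05. The smallest p-values were those of Gadd45gip1 (20.5 ± 1.04 CPM with Visudyne and 21.5 ± 2.27 CPM with vehicle, -0.07) and Chchd1 (13.4 ± 1.53 and 14.4 ± 1.70 CPM, -0.10). For 28 assembly factors the median was -0.03, with 7 positive, and the leading genes were the protease subunit gene Spg7 (31.5 ± 1.59 and 33.3 ± 1.11 CPM, -0.08) and the GTPase gene Gtpbp10 (8.75 ± 0.505 and 9.30 ± 0.611 CPM, -0.09). For 15 factors of translation and of mRNA handling it was -0.01, led by the release factor gene Mtrf1 (6.18 ± 0.444 and 6.68 ± 0.470 CPM, -0.11) and the initiation factor gene Mtif3 (11.8 ± 0.267 and 12.3 ± 0.839 CPM, -0.06). The 19 aminoacyl-tRNA synthetases had -0.04, led by Sars2 and the prolyl enzyme gene Pars2 (7.29 ± 0.313 and 7.72 ± 0.145 CPM, -0.08). The 9 genes of mitochondrial transcription and DNA maintenance had -0.03, led by Tfam, which packages mitochondrial DNA (28.5 ± 1.92 and 30.1 ± 1.90 CPM, -0.08), and the polymerase subunit gene Polg2 (2.40 ± 0.215 and 2.55 ± 0.245 CPM, -0.09). All of these means are given with Visudyne first and SD, n = 5 each. The cytosolic ribosomal genes had a median of -0.03, the nuclear OXPHOS genes -0.03 and the mitochondrially encoded genes -0.07, with 0 members past the test in each.

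The members described with values in every library lie as follows in mm10 (GENCODE M21). On chromosome 17 are Mrps18b (ENSMUSG00000024436, minus strand, 35910379-35916389) and Mrps18a (ENSMUSG00000023967, plus strand, 46110986-46128910). Chromosome 7 holds Mrps12 (ENSMUSG00000045948, minus strand, 28739641-28741820) and Mrpl23 (ENSMUSG00000037772, plus strand, 142532686-142540747). On chromosome 10 are Mrpl54 (ENSMUSG00000034932, minus strand, 81264713-81266934) and Mrpl42 (ENSMUSG00000062981, minus strand, 95480805-95501940). Chromosome 6 holds Mrps25 (ENSMUSG00000014551, minus strand, 92169525-92184033) and Mrps35 (ENSMUSG00000040112, plus strand, 147042764-147073991). Mrpl12 (ENSMUSG00000039640, plus strand, 120484613-120489065) is on chromosome 11, Mrps18c (ENSMUSG00000016833, plus strand, 100798627-100804471) on chromosome 5 and Mrpl34 (ENSMUSG00000034880, plus strand, 71464959-71465747) on chromosome 8. Values are per gene, over its transcripts.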

How the data were processed

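Total RNA was column-purified and made into stranded total RNA libraries, per the labels' protocols. For 10 samples, whole-number estimated counts for each Ensembl gene were deposited. Salmon, FastQC and the build mm10 are named in the submitters' processing notes; versions and the annotation release were not given in the sources used here. Symbols, transcript lengths (APPRIS principal) and positions came from GENCODE M21 on the same assembly, which matched 28564 of 28871 identifiers. Genes were filtered with edgeR's default, scaled by TMM and tested with edgeR 4.0.16 (R 4.3.3), quasi-likelihood F-test, Visudyne against vehicle, Benjamini-Hochberg over 19093 genes, threshold 0.05. CPM uses TMM-scaled totals. Log2 CPM has a prior count of 2. SEs and 95% intervals derive from the F statistics. The procedure was tested on simulated data. The simulated differences were larger than those estimated for the members, so this does not tell whether smaller ones would be called. No 2 libraries agreed within sampling noise (lowest chi-square over its degrees of freedom 9.63 among 45 pairs), so no file was treated as a repeat deposit of another; this does not show that the samples are separate animals. Alternatives were other scalings, filters, DESeq2 1.42.0, limma 3.58.1 voom, the sample number as covariate, sets of consecutive numbers as a block and leaving out samples. Members and lists were chosen with earlier results of these data known.

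Named members were the 5 of smallest p in each direction, the 4 highest and 4 lowest per kilobase, the 3 of largest spread and 8 set by symbol; in pathway lists, the 2 of smallest p. Other members named in the text were added after their values were seen, as were the measures of shared sequence and of opposite starts, the motifs, and the genes of the factors that bind them.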

Additional observations from a re-analysis of the deposited data

Results flagged for a closer look

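In 2 of 62 groups of 5 values checked, 1 library stood far from the other 4 by Dixon's test, where chance gives about 1 in 20. Visudyne 15 had 7.67 CPM of Mrpl54, and the nearest Visudyne library 9.57 CPM. Vehicle 1 had 22.8 CPM of Mrps25, and the nearest vehicle library 19.7 CPM. Over all members it was 6 of 154 groups.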

How the results depend on the processing

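The main test was unpaired, because the labels state no pairing and the groups share no sample number. The numbers run in sets of 3 with a sample of each group (1 and 3, 4 and 6, and so on), a pairing the labels do not state. With these sets as a block (chosen after seeing the data) 9 genes were higher and 1 lower, 954 of all genes had an unadjusted p under 0.05, against 325 without it, and 0 members and 0 pathway genes passed the threshold. Members at an unadjusted p under 0.05 were 0 there too, and none changed sign. The count of 0 members past the threshold held under all 22 alternatives run. Genes of the whole table past it, 4 higher and 0 lower, numbered 2 higher with upper-quartile factors or without mitochondrial genes, 19 with the sample number as covariate, 18 with DESeq2, 13 with weighted voom, and 0 to 4 higher and 0 to 1 lower with 1 library left out. With vehicle 1 and Visudyne 15, the end libraries, left out together (chosen after seeing the data), they were 1 higher and 1 lower. Members at an unadjusted p under 0.05 were 0 to 1 with 1 library left out and 2 without the end libraries (Mrps25 and Mrpl34). Over all genes tested there were 278 to 529 and 778 in the same settings, so these members do not stand out. Members without overlap were 1 with total counts (Mrps27), 0 to 1 with 1 library left out (Mrps25, Mrpl23 or Mrps5) and 2 without the end libraries. The share of all genes without overlap was not counted in these settings, so these members are not read as differing. The members' median ran from -0.05 to 0.0013 with 1 library left out, and was 0.03 without the end libraries, with 19 negative. The rRNA share differed by -1.51 percentage points, by -2.65 as a percentage of protein-coding counts (26.9 ± 1.51% with Visudyne and 29.6 ± 2.10% with vehicle, exact permutation p = 0.0635), and by -1.92 to -1.21 with 1 library left out. Without vehicle 13 its exact permutation p was 0.0397. The sign of the uncalled log2 fold change differed for 37 of 77 members with total counts, 13 with the sample number, 15 with weighted voom, 43 without the end libraries, 22 without vehicle 1 and 19 without Visudyne 15. The values of those among the named members follow, and the cause was not tested. With total counts they were Mrps21 0.029, Mrpl20 0.030, Mrps33 0.017, Mrpl17 0.014, Mrpl50 0.020, Mrps18a 0.024, Mrps18c 0.013, Mrps12 0.025 and Mrpl58 0.027. With the sample number they were Mrps21 0.0016, Mrpl20 0.010, Mrps33 0.0013, Mrpl42 -0.036, Mrps12 0.0058 and Mrpl58 0.0087. With weighted voom they were Mrps21 0.045, Mrpl20 0.00038, Mrpl42 -0.36, Mrps12 0.013 and Mrpl58 0.028. Without the end libraries they were Mrps21 0.079, Mrpl20 0.077, Mrps33 0.056, Mrpl42 -0.13, Mrpl17 0.023, Mrpl50 0.048, Mrps18a 0.0077, Mrps18c 0.053, Mrps12 0.060 and Mrpl58 0.048. With 1 library left out the ranges were -0.053 to 0.041 for Mrps21, -0.060 to 0.033 for Mrpl20, -0.064 to 0.020 for Mrps33, -0.23 to 0.30 for Mrpl42, -0.051 to 0.012 for Mrpl17, -0.084 to 0.035 for Mrpl50, -0.082 to 0.016 for Mrps18c, -0.051 to 0.028 for Mrps12, -0.041 to 0.016 for Mrpl58, -0.031 to 0.050 for Mrps36 and -0.025 to 0.040 for Mrpl45. Counts were lowest for Mrpl42, down to 19, and Mrpl23, down to 52, the members of largest spread.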

Other observations

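The genes of the factors whose motifs were searched did not pass edgeR's test. Nrf1 averaged 15.8 ± 1.06 CPM in Visudyne and 16.0 ± 0.872 CPM in vehicle hippocampi, Gabpa 24.5 ± 1.57 and 24.3 ± 0.364 CPM, and Yy1 34.1 ± 2.36 and 35.1 ± 1.96 CPM (SD, n = 5 each). Ppargc1a, a coactivator of mitochondrial gene expression, averaged 44.0 ± 1.67 CPM in Visudyne and 43.1 ± 2.86 CPM in vehicle hippocampi.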
